A study of Homo sapiens with 3 samples.

Results

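The EGF receptor family and its ligands were followed across a knockdown of PRMT1 in HCT116, an established line of human colorectal carcinoma cells. The 10 genes were the receptors EGFR, ERBB2, ERBB3 and ERBB4 and the ligands EREG, AREG, TGFA, HBEGF, BTC and EPGN, and every non-control probe that the array files assign to these names was taken. This gave 18 of the 58201 non-control probes, 10 for the 4 receptors and 8 for the 6 ligands, printed in 27 of the 60901 non-control spots of each array. Total RNA was hybridised to 1 array for each of 3 groups, a negative control (NC) and PRMT1-KD1 and PRMT1-KD2 (KD1 and KD2 below). PRMT1 is an enzyme that dimethylates arginines, including arginine 3 of histone H4. Per the labels, PRMT1 was targeted with siRNAs and cells were transfected with Lipofectamine 3000, and nothing in the labels says which siRNA gave KD1 and which gave KD2. The SMARCA4 knockdowns and the other control of the study were not analysed here. The siRNA sequences are shown because the 2 knockdowns differed for one of the receptors.
PRMT1 siRNA-1: cugaaguccaggucgauggugaaguc
PRMT1 siRNA-2: uuguagucuuuguacugcc

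The receptors of this family are membrane tyrosine kinases that signal as dimers. Their ligands are made as membrane-anchored precursors, and proteases such as ADAM17 and ADAM10 release the active growth factor at the cell surface. EGFR binds EREG, AREG, TGFA, HBEGF, BTC and EPGN, ERBB4 also binds HBEGF, BTC and EREG, ERBB3 binds neuregulins and has little kinase activity of its own, and ERBB2 has no known ligand and serves as a dimer partner. In colorectal cancer, EREG and AREG are known as ligands that tumour cells make for their own EGFR.

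Values are log2 intensities relative to the 75th percentile of each array, and a change is the difference of such values from NC. A change past 1.5-fold, the fold used in the study, is called higher or lower. With 1 array per group no change has a replicate check, and the error given after ± is the spot error that the extraction software assigns, combined over the 2 arrays compared. Both knockdowns share the NC array, so a deviation of NC would move both changes alike. RNA was taken from whole cultures, so less RNA per cell and fewer cells that express a gene cannot be told apart. The arrays lay on the same slide and were read in the same scan.

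PRMT1 was examined first. Its probe read 7522 on NC, 1029 on KD1 and 343 on KD2 before scaling, which left 10.3% of the NC level in KD1 and 4.26% in KD2 after scaling. Between 40.8% and 42.5% of probes were well above background on the 3 arrays, no member spot was marked as an outlier or saturated, and the 75th percentile of KD1 lay 0.41 log2 units above that of NC. Over 17056 genes above background on all arrays, the difference between KD1 and KD2 had a robust SD of 0.38. Of 6 epithelial markers, EPCAM, KRT8, KRT18, KRT19 and CDH1 were above background on every array and CDH17 on none. CDH1, which encodes E-cadherin, was higher in both knockdowns (0.94 and 0.76). The keratin gene KRT8 was lower in KD1 (-0.89) and changed by -0.39 in KD2. Its other probes were short of 1.5-fold in both (-0.38 and -0.29, and -0.30 and -0.16). KRT18 changed by -0.54 and -0.56, short of 1.5-fold, while its second probe was lower in both (-0.63 and -0.68). KRT19 (-0.32 and -0.20) and EPCAM (0.27 and -0.002) were short of 1.5-fold. CD3E, PECAM1, COL1A2 and DCN were not above background on any array, PTPRC was so on KD2 alone, and VWF, CDH5, COL1A1 and DES were above background on all 3. The endothelial marker CDH5 was higher in KD1 (1.46) and changed by 0.55 in KD2, DES was lower in KD1 (-0.69), and COL1A1 was higher in KD2 (0.62). The part of these markers in the results below was not tested.

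Of the 10 genes, 8 were measured, and ERBB4 and EPGN were not above background on any array. EREG and HBEGF were higher in both knockdowns, BTC and ERBB3 were lower in both, and EGFR was higher in KD1 and lower in KD2. The ERBB3 call rests on a short-transcript probe that was brighter than the full-length probe on NC alone. By the full-length probe ERBB3 changed by -0.22 in KD1 and 0.15 in KD2, short of 1.5-fold. The study gives EGFR as lower in both PRMT1 knockdowns, by arrays, quantitative PCR and western blot, with a further control not analysed here. The direction read here in KD1 is opposite to the one it states, but rests on 1 probe of 1 array. The other EGFR probes changed by 0.02 and 0.35 in KD1, both short of 1.5-fold. With the series matrix values of the authors and the same scaling, the second of these was lower in KD1 (-0.62), the direction the study states. In KD1, 4 of the 8 measured genes were higher (AREG, EGFR, EREG and HBEGF) and 2 were lower (BTC and ERBB3), where 14.6% of all 19252 genes measured were higher and 14.7% lower. In KD2, 2 were higher (EREG and HBEGF) and 3 were lower (BTC, EGFR and ERBB3), where 12.4% of 19442 genes were higher and 11.5% lower. The median change of the 8 genes was 0.40 in KD1 against -0.06 over all genes, and 0.10 in KD2 against -0.04. Over the 18618 genes measured in both comparisons, 5.78% were higher in both, 6.36% were lower in both and 0.301% were past 1.5-fold in opposite directions, as EGFR was. Scaling to spike-in probes raised the median change of all detected probes by 0.64 in KD1 and 0.29 in KD2 and turned the counts into 5 higher and 0 lower in KD1 and 3 higher and 1 lower in KD2. The unscaled series matrix gave 4 higher and 1 lower in KD1 and 3 higher and 3 lower in KD2.

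**Figure D1:**
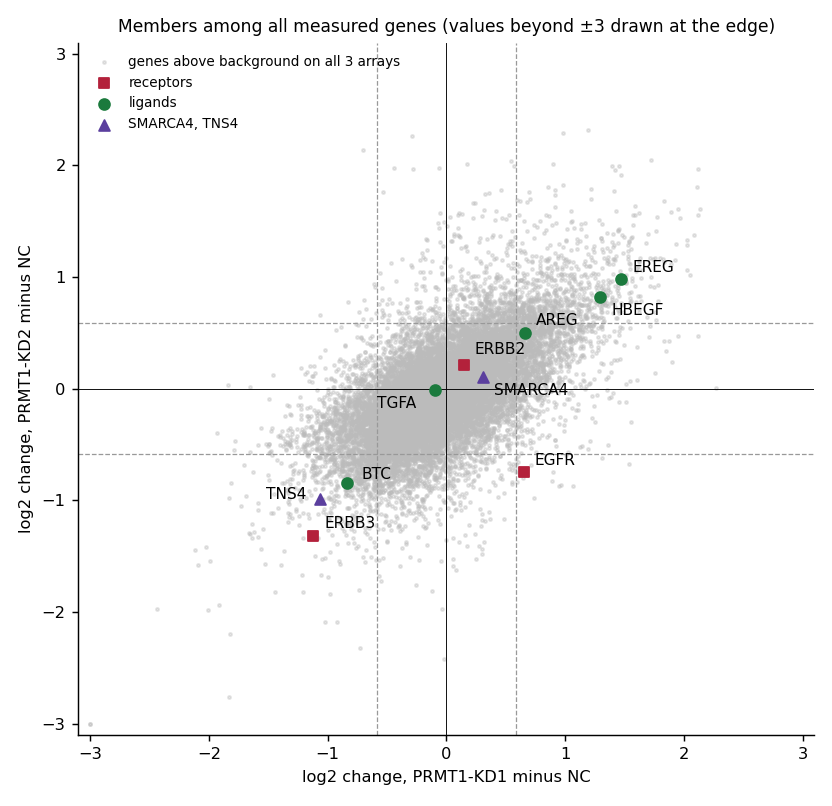
Log2 change in KD1 (x axis) against log2 change in KD2 (y axis), both relative to the same NC array, for genes above background on all 3 arrays (grey), the receptors (squares), the ligands (circles), and SMARCA4 and TNS4 (triangles). Dashed lines mark 1.5-fold. EGFR at 0.65 and -0.75 lies in the lower right, and EREG and HBEGF lie in the upper right. BTC and ERBB3, the latter by its short-transcript probe, lie in the lower left.

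EGFR, the receptor of all 6 ligands, was the only member past 1.5-fold between KD1 and KD2, where 21.4% of 19557 genes were. Its main probe, A_23_P215790, lies at chr7:55274841-55274900 (hg19, plus strand) in the full-length transcript NM_005228. It read 383 on NC, 802 on KD1 and 245 on KD2 before scaling, and 1.74, 2.39 and 0.99 after it. KD1 was thus the highest of the 3 arrays and KD2 the lowest. The change was 0.65 ± 0.20 in KD1, a fold of 1.57, and -0.75 ± 0.21 in KD2, which left 59.5% of NC. The knockdowns differed from each other by 1.40 ± 0.21, where the robust SD of that difference among probes of like brightness was 0.36, and 1.46% of all genes had a larger positive difference. PRMT1 was itself 1.27 log2 units higher in KD1 than in KD2, and whether this bears on EGFR was not tested. After the typical change of probes with similar base composition and signal was removed, the EGFR change was 0.32 in KD1, below 1.5-fold, and -0.86 in KD2.

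The array files assign the other EGFR probes to shorter transcripts, which encode truncated receptors without the kinase. The sequence of A_33_P3351955 (chr7:55231446-55231505, listed for NM_201282 and NM_201284) is coding sequence of the extracellular region that full-length EGFR shares, so full-length and truncated transcripts cannot be told apart by it. It read 46.3 on NC, 62.4 on KD1 and 31.0 on KD2, a change of 0.02 ± 0.26 in KD1 and of -0.68 ± 0.30 in KD2. KD1 and NC lay together for this probe and KD2 below them, so KD2 was lower by both probes, while in KD1 they differed and the main probe alone was higher. Its spots are dim, and its KD2 change was -0.36 with normexp background correction and -0.39 with spike-in scaling, short of 1.5-fold. The main probe was also short of 1.5-fold in KD2 with these settings (-0.58 and -0.46). A_33_P3351944 (chr7:55224558-55224617, NM_201283) read 34.6, 58.7 and 44.5, a change of 0.35 ± 0.28 in KD1 and 0.26 ± 0.28 in KD2, both short of 1.5-fold. The series matrix of the authors holds 93.2, 80.9 and 72.5 for this probe, which gives -0.62 and -0.46 after the same scaling. This is past 1.5-fold lower in KD1 and short of it in KD2. Without scaling the matrix gives -0.20 in KD1 and -0.36 in KD2. A_33_P3351944 was the only 1 of 57901 probes with a single spot whose matrix value differed from the scanner intensity by more than 1%, and the cause was not tested. Averaged over the 3 probes, EGFR was not past 1.5-fold in either knockdown. The EGFR probe sequences are shown because their values disagree, the full 60 bases where the run is coding and the first 30 otherwise.
EGFR A_23_P215790: tatcaaggaagaaatggttcagaaaatatt
EGFR A_33_P3351955: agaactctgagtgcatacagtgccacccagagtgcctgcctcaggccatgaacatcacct
EGFR A_33_P3351944: ggaaatcagtgttttagagagagaactttt

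The start of EGFR is also where the study placed its chromatin immunoprecipitation (ChIP) primers. In the RefSeq promoter table (GRCh38.p14), both primers were found in the 250 bases before the start, chr7:55018767-55019016 on the plus strand. They bound a product of 187 bases that runs from base 235 to base 49 before the start. The window is shown with the primer sites in capitals.
EGFR promoter: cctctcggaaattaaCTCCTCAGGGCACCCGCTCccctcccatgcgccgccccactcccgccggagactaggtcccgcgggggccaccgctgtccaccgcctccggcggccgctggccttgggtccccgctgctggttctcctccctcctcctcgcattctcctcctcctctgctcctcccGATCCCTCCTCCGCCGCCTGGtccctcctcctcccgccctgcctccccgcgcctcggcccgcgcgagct

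The genes nearest to EGFR in their pair of changes, by Euclidean distance over the 2 knockdowns and among 12570 genes with a symbol, were TRAM2-AS1 (0.64 in KD1 and -0.80 in KD2) and KIF5C (0.59 and -0.75). Of 17055 genes above background on all arrays, 19 lay within 0.2 of EGFR, against 10 within 0.2 of ERBB3 and 109 within 0.2 of HBEGF.

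**Figure D2:**
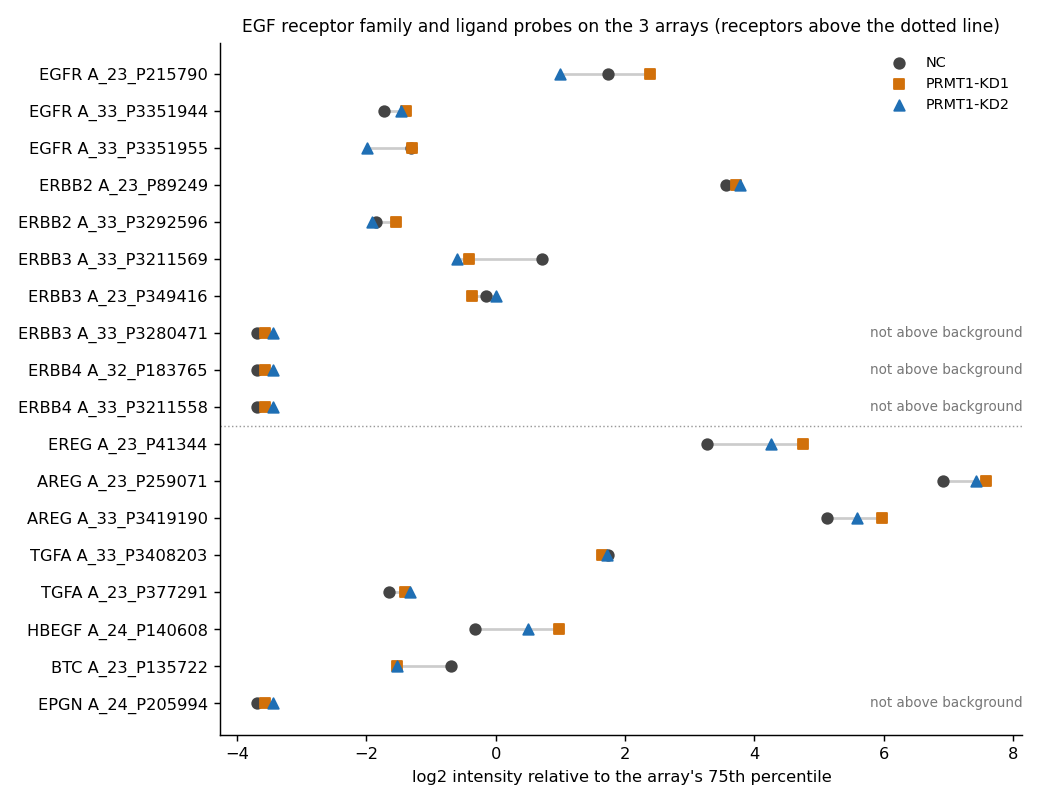
Log2 intensity relative to the 75th percentile of the array (x axis) of all 18 member probes on NC (circles), KD1 (squares) and KD2 (triangles). Values of probes not above background are drawn at the lowest level that was, and positions of different probes cannot be set against each other because each probe binds with its own strength. The arrays lie farthest apart for EGFR A_23_P215790, EREG, HBEGF and ERBB3 A_33_P3211569.

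ERBB2, the preferred dimer partner of the other receptors, was measured with 10 spots per array by probe A_23_P89249 (chr17:37884829-37884888, hg19, plus strand). The 10 spots read 1306 to 1397 on NC with a median of 1358, 1911 to 2111 on KD1 with a median of 2008, and 1607 to 1741 on KD2 with a median of 1683. After scaling the means were 3.56 ± 0.04 on NC, 3.71 ± 0.05 on KD1 and 3.77 ± 0.03 on KD2 (SD, n = 10 spots of 1 array). The NC spots lay below those of either knockdown and the knockdowns overlapped. The changes of 0.15 ± 0.20 in KD1 and 0.21 ± 0.20 in KD2 were short of 1.5-fold, and spots of the same array show printing error and not the spread between cultures. A second ERBB2 probe, A_33_P3292596 (chr17:37851136-37851195, ENST00000584014), read 31.7, 52.3 and 32.6, a change of 0.31 ± 0.28 in KD1 and -0.06 ± 0.30 in KD2.

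**Figure D3:**
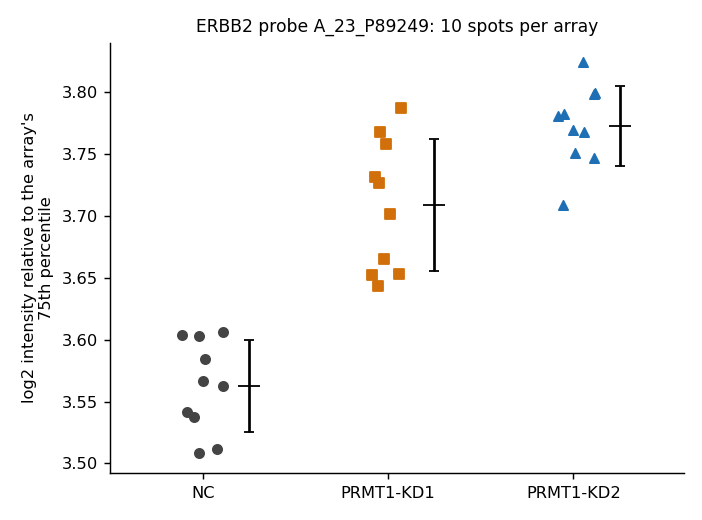
Log2 intensity relative to the 75th percentile (y axis, which does not start at 0) of each of the 10 ERBB2 A_23_P89249 spots on the 3 arrays, with the mean and SD over spots beside them. The NC spots, at 3.51 to 3.61, lie below the KD1 spots at 3.64 to 3.79 and the KD2 spots at 3.71 to 3.82.

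ERBB3, the neuregulin receptor, gave different answers by probe. A_33_P3211569 (chr12:56479217-56479276, hg19, plus strand) reads NM_001005915, a short transcript for a truncated receptor, and was the ERBB3 probe with the highest mean signal. It read 188 on NC, 115 on KD1 and 80.9 on KD2, so NC was the highest of the arrays. The change was -1.12 ± 0.21 in KD1 and -1.31 ± 0.22 in KD2, which left 46.0% and 40.2% of NC. A_23_P349416 (chr12:56496160-56496219), in the full-length transcript NM_001982, read 104, 119 and 123, a change of -0.22 ± 0.22 in KD1 and 0.15 ± 0.22 in KD2. The full-length probe was therefore not past 1.5-fold in either knockdown, and the ERBB3 call rests on the short transcript. The short-transcript probe was the brighter of the pair on NC alone. Its choice by highest mean thus depended on NC, the array that both knockdowns are set against. The third probe, A_33_P3280471, was not above background on any array. The mean over probes kept ERBB3 lower in KD1 and not in KD2. MRPL37 (-1.08 and -1.34) and IFITM1 (-1.21 and -1.34) had the pairs of changes nearest to that of the short ERBB3 transcript. The first 30 of 60 bases of the probes that disagree are shown.
ERBB3 A_33_P3211569: ttttctaatttcaaagtacagtgtaccgga
ERBB3 A_23_P349416: gctcttgactacttggaactaggctcttat

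ERBB4, which binds neuregulins as well as HBEGF and BTC, was not measured. Its probes at chr2:212240515-212240574 and chr2:212248409-212248468 (hg19, minus strand) read between 3.50 and 4.78 on the 3 arrays and were not well above background on any of them, which gives no direction.

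**Figure D4:**
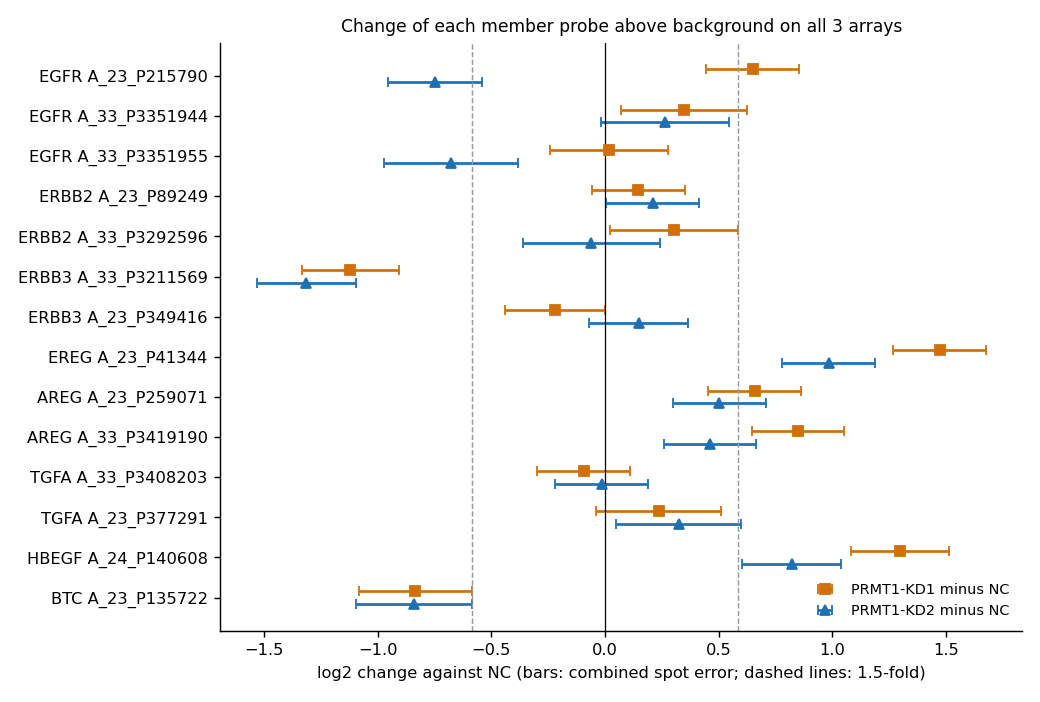
Log2 change against NC (x axis) of the 14 member probes above background on all arrays, in KD1 (squares) and KD2 (triangles), with bars for the combined spot error and dashed lines at 1.5-fold. The knockdowns lie on opposite sides of 0 for EGFR A_23_P215790, on the right for EREG, AREG and HBEGF, and on the left for BTC and ERBB3 A_33_P3211569. They also lie on opposite sides for EGFR A_33_P3351955, ERBB2 A_33_P3292596 and ERBB3 A_23_P349416, where the bar of the smaller change reaches 0.

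Among the ligands, EREG, which encodes epiregulin, had the largest change. Its probe A_23_P41344 (chr4:75254009-75254068, hg19, plus strand) read 1109 on NC, 4102 on KD1 and 2351 on KD2. NC was the lowest array and KD1 the highest. The change was 1.47 ± 0.20 in KD1, a fold of 2.77, and 0.98 ± 0.20 in KD2, a fold of 1.98. Only 2.11% of genes in KD1 and 5.15% in KD2 had a higher change.

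HBEGF, a heparin-binding ligand of EGFR and ERBB4, followed the same order. Probe A_24_P140608 (chr5:139713052-139713111, minus strand) read 91.8 on NC, 301 on KD1 and 174 on KD2. The change was 1.30 ± 0.22 in KD1, a fold of 2.46, and 0.82 ± 0.22 in KD2, a fold of 1.77. KD1 exceeded KD2 by 0.49 ± 0.20 for EREG and by 0.48 ± 0.21 for HBEGF, both short of 1.5-fold. HERC1 (1.30 and 0.80) and DDAH1 (1.29 and 0.80) had the pairs of changes nearest to that of HBEGF. With normexp background correction the HBEGF change in KD2 was 0.55, below 1.5-fold.

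AREG, which encodes amphiregulin, was read by a pair of probes that gave like values. A_23_P259071 (chr4:75320518-75320577, plus strand) read 13927 on NC, 29299 on KD1 and 21145 on KD2, a change of 0.66 ± 0.20 in KD1 and 0.50 ± 0.20 in KD2. A_33_P3419190 (chr4:75318293-75318352) read 4002, 9609 and 5905, a change of 0.85 ± 0.20 and 0.46 ± 0.20. NC was the lowest array for both probes, and both passed 1.5-fold in KD1 and neither in KD2. In KD2 the brighter probe, A_23_P259071, did pass with quantile normalization (0.62), spike-in scaling (0.79) and the unscaled series matrix (0.60). In hg19, AREG has a near-identical copy, AREGB, which RefSeq now lists as a synonym of AREG, and RNA from such copies cannot be told apart by these probes.

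TGFA, an EGFR ligand named for its transforming activity, did not pass 1.5-fold by either probe. A_33_P3408203 (chr2:70683472-70683531, minus strand) read 382, 477 and 405, a change of -0.09 ± 0.21 in KD1 and -0.02 ± 0.21 in KD2. A_23_P377291 (chr2:70675319-70675378) read 36.7, 57.6 and 49.3, a change of 0.24 ± 0.27 in KD1 and 0.32 ± 0.27 in KD2.

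BTC, which encodes betacellulin, was the only ligand that fell past 1.5-fold in both knockdowns. Probe A_23_P135722 (chr4:75675838-75675897, minus strand) read 71.3 on NC, 53.3 on KD1 and 42.7 on KD2. The change was -0.84 ± 0.25 in KD1 and -0.84 ± 0.25 in KD2, so 56.1% and 55.8% of the NC level remained. These are dim spots, and with normexp the changes were -0.39 and -0.28 and with spike-in scaling -0.20 and -0.55, all short of 1.5-fold. The sequences read by the probes of the ligands that changed are shown, the first 30 of 60 bases of each, or all 60 for the coding AREG probe.
EREG A_23_P41344: tgttcatatgggagaagggggagtaatgac
HBEGF A_24_P140608: cccatctgtagtaatttattgtctgtctac
AREG A_33_P3419190: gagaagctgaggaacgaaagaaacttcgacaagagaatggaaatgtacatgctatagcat
BTC A_23_P135722: agagagttgacttgttttacctaagaggag

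EPGN, which encodes epigen, read 4.13, 4.59 and 3.92 at chr4:75178782-75178841 and was not above background on any array. EPGN, EREG, AREG and BTC lie in this order on chromosome 4, with their probes spread over 497 kb in hg19. Within this cluster EREG and both AREG probes had positive changes in KD1 and KD2, and BTC, at the far end and on the opposite strand, had negative ones. The noncoding transcript lnc-BTC-5, between AREG and BTC and chosen for its position, was read by a pair of probes that were higher in both knockdowns, by 0.69 and 0.63 for A_22_P00019236 and by 1.14 and 0.91 for A_22_P00002184.

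The 250 bases before the start of the 4 ligands that passed 1.5-fold are shown from the RefSeq promoter table (GRCh38.p14), with matches on either strand to 4 motifs in capitals. These were the cAMP response element TGACGTCA, held by 1.65% of 35116 promoter windows of this length, the AP-1 motif TGANTCA, held by 6.57%, the TATA box TATAAA, held by 3763 of the 35116, and the GC box GGGCGG, held by 42.6%. EREG (chr4:74364895-74365144, plus strand) held a TATA box 32 to 27 bases before the start. AREG (chr4:74444886-74445135, plus strand) held a cAMP response element 65 to 58 bases, a TATA box 29 to 24 bases and a GC box 9 to 4 bases before it. HBEGF (chr5:140346604-140346853, minus strand) held 5 GC boxes, of which the 2 nearest to the start shared 1 base. BTC (chr4:74794524-74794773, minus strand) held none of the 4. The 2 ligands that were higher in both knockdowns shared none of these motifs, and the windows of EREG and AREG, the neighbours on the chromosome, shared the TATA box, as did that of EPGN (not shown). No window shown held both a cAMP response element and an AP-1 motif, and apart from the GC boxes of HBEGF no matches overlapped.
EREG promoter: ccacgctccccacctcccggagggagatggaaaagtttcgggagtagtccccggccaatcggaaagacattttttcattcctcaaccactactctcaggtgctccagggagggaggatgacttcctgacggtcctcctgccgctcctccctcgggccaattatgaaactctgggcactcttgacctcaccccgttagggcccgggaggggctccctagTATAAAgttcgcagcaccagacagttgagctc
AREG promoter: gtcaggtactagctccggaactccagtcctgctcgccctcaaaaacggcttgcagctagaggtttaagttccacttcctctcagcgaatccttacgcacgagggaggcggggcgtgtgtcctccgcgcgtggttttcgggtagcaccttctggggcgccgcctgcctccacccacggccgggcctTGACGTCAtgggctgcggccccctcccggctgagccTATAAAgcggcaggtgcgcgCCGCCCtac
HBEGF promoter: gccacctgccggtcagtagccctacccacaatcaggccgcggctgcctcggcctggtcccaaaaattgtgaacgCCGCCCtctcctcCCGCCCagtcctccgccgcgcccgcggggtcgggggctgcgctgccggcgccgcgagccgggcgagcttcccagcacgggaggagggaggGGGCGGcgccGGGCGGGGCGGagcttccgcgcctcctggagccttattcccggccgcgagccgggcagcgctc
BTC promoter: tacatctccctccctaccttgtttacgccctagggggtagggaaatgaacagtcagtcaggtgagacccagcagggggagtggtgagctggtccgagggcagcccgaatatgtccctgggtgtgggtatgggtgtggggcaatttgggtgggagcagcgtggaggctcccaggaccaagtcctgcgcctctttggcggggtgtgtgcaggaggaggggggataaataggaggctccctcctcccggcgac

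Genes that act with the receptors were read from 4 lists. Of 5 other ERBB ligands, NRG1 alone was above background, with a change of 0.04 in KD1 and -0.36 in KD2, and EGF, NRG2, NRG3 and NRG4 were not. Of 9 genes of ligand shedding and transport, 7 were measured, and 1 was higher and 0 lower in each knockdown, with a median change of 0.28 in KD1 and 0.33 in KD2. None of them was past 1.5-fold in both. Of 13 receptor adaptors and proximal effectors, 12 were measured, with 3 higher and 1 lower in KD1 and 0 either way in KD2. Of 17 receptor inhibitors and genes of receptor degradation, all measured, 3 were higher and 2 lower in KD1, and 1 was higher and 1 lower in KD2. Over all genes 14.6% were higher and 14.7% lower in KD1, and 12.4% and 11.5% in KD2, and with so few genes these counts are not read as a change of any list. Among the inhibitors ERRFI1, whose product MIG6 binds and inhibits the EGFR kinase, was higher in both knockdowns (1.63 and 0.99), and CBLC, a ubiquitin ligase that targets activated EGFR, was lower in both (-0.67 and -0.62). TNS4, an adaptor that the study followed beside EGFR, was lower in both knockdowns (-1.07 ± 0.20 and -0.99 ± 0.20), while SMARCA4 changed by 0.31 ± 0.20 and 0.11 ± 0.20, short of 1.5-fold.

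A fit that pooled KD1 and KD2 and set their mean against NC (limma, Benjamini-Hochberg adjustment over 20076 genes) called 0 of the 8 members and 0 genes in all (0%), and 7.57% of genes had an unadjusted p under 0.05. The unadjusted p was under 0.05 for 4 members. ERBB3, by its short-transcript probe, had a mean change of -1.22 (SE 0.31). EREG had one of 1.23 (SE 0.36), HBEGF of 1.06 (SE 0.35) and BTC of -0.84 (SE 0.30). EGFR, which moved in opposite directions, had a mean change of -0.05 (SE 0.61, adjusted p = 0.987). Over the alternatives the smallest adjusted p of any member ranged from 0.00619 with normexp, which called EREG, to 0.672 with outlier spots kept.

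**Figure D5:**
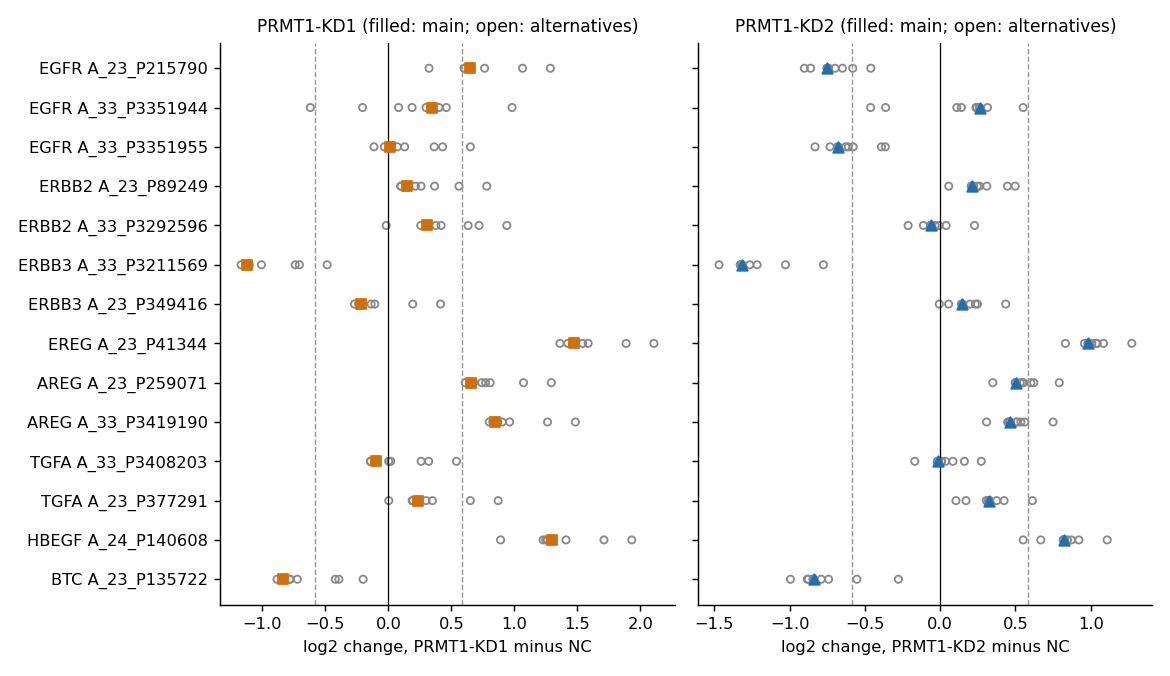
Log2 change against NC (x axes) of the 14 member probes above background on all arrays, in KD1 (left) and KD2 (right), as reported (filled) and under the alternative settings (open), with dashed lines at 1.5-fold. EREG and HBEGF stay on the right of 0 in both panels, and EGFR A_23_P215790 stays on the right in KD1 (0.32 to 1.29) and on the left in KD2 (-0.90 to -0.46).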

How the data were processed

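Gene expression was measured in HCT116 cells with 1-colour Agilent arrays of 60-base probes, 1 array each for NC, PRMT1-KD1 and PRMT1-KD2. The authors deposited scanner output in which, per the file headers, Agilent Feature Extraction 10.7.1.1 had turned each spot into a background-corrected intensity (gProcessedSignal), with no scaling across arrays. The series matrix, also deposited as unscaled intensity, was an alternative. Probe positions are hg19 as deposited. Sequences came from the files, the labels and RefSeq tables (GRCh38.p14).

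Control spots and spots marked as non-uniform or population outliers were left out, which removed 130 probes. Spots of a probe were averaged as log2, and each 75th percentile was subtracted. A gene was read by its probe with the highest mean, and counted as measured if either array compared read that probe well above background. On an array where it was not, a signal under the lowest one that was well above background was raised to that lowest signal. The threshold was a fold of 1.5. The p-value of the study's methods needs replicate arrays. The secondary fit used limma 3.58.1 (lmFit, eBayes) in R 4.3.3 and assumes that NC varies like the knockdowns. Tables were made with Python 3.11.15, numpy 2.4.6 and pandas 2.3.3, and figures with matplotlib 3.10.9. Both calculations were tested on simulated data with less noise than these arrays show, which checked the code and not the error of the calls.

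The members and gene lists were chosen with earlier results of these data known. Named genes were all members, PRMT1, SMARCA4, TNS4, those of the lists that passed 1.5-fold in KD1 and KD2 with equal sign, and the 2 nearest genes to EGFR, ERBB3 and HBEGF. Alternatives were normexp (offset 50), quantile normalization, median scaling, a percentile over detected probes, 8 E1A spike-in probes, series matrix values, other filters, the mean over probes, outlier spots kept, a fold of 2 and an intensity trend in eBayes. Subtracting a trend in GC content and brightness (10 by 10 classes) was chosen after seeing the data. With 3 arrays, precision is set by their number.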

Additional observations from a re-analysis of the deposited data

How the results depend on the processing

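No paired analysis was possible because each group has 1 array, and no array could be left out of a comparison. No called change of a member probe changed sign under any of the alternatives run. Changes short of 1.5-fold could do so. With the scaled series matrix, EGFR probe A_33_P3351944 went from 0.35 to -0.62 in KD1 and from 0.26 to -0.46 in KD2. Of the 8 measured members, those past 1.5-fold in KD1 fell from 6 to 3 at a fold of 2 (ERBB3, EREG and HBEGF). In KD2 they fell from 5 to 2 with normexp (ERBB3 and EREG), to 3 with the mean over probes (BTC, EREG and HBEGF) and to 1 at a fold of 2 (ERBB3). Between KD1 and KD2 the count was 3 in place of 1 with median scaling, with spike-in scaling and with the unscaled series matrix, which added EREG and HBEGF to EGFR. EGFR was past 1.5-fold there under all 13 alternatives. Limma called 1 member, EREG, with normexp in place of 0. Over all genes it called 195 with normexp, 97 with an intensity trend, 169 with median scaling, 240 with the unscaled series matrix, 308 with spike-in scaling and 2 with genes detected on all arrays, in place of 0. Median scaling moved the median change of detected probes by 0.11 in KD1 and -0.15 in KD2, and the unscaled series matrix by 0.41 in KD1 and 0.10 in KD2. Against NC, EREG and HBEGF in KD1 passed under all 13 alternatives, EREG in KD2 under 12 and HBEGF in KD2 under 11. EGFR passed under 10 in KD1 and 9 in KD2, and BTC under 9 and 10. The other filters, the scaled series matrix and keeping outlier spots left the values of these probes unchanged or nearly so. The mean over probes could not change EREG, HBEGF or BTC, which have 1 probe each. The counts over 13 alternatives are thus not counts of separate checks. Signal near background limits the dim probes. With normexp the short ERBB3 transcript changed by -0.74 in KD1 and -0.78 in KD2, still past 1.5-fold, and the BTC changes no longer passed. With spike-in scaling the ERBB3 change in KD1 was -0.49, short of 1.5-fold. The cause was not tested.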

Other observations

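The protein-coding genes above background on all arrays within 500 kb of the ligand cluster on chromosome 4 are given for their position, chosen after their values had been seen. On the side of EPGN, CXCL1, a chemokine that attracts neutrophils, was higher in both knockdowns by 1.42 in KD1 and 1.96 in KD2 for A_23_P7144 and by 0.75 and 1.31 for A_33_P3330264. CXCL5 (1.18 and 0.67) was also higher in both. The CXCL2 probes differed, with 1.53 and 1.13 for A_23_P315364 and 0.12 and 0.51 for A_24_P257416. On the side of BTC, PARM1 changed by 0.43 in KD1 and -0.55 in KD2, short of 1.5-fold. The antisense transcript EGFR-AS1 and TGFA-IT1, an RNA from an intron of TGFA, were not above background on any array.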
